A study of Mus musculus with 12 samples.

Results

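The genes of the mitochondrial ribosomal proteins were followed in the calf muscle of diabetic mice after adenoviral delivery of short hairpin RNA (shRNA) against TSC22D4, LCN13 or both. All genes whose symbol begins with Mrpl or Mrps were taken. They numbered 76 of the 23185 genes that a probe set of the array names singly, with 48 Mrpl and 28 Mrps symbols and 1 probe set each. By protein, 50 lie in the large subunit, among them Mrps30 and Mrps18a, and 25 in the small subunit. Mrps36, now known as a subunit of the 2-oxoglutarate dehydrogenase complex, belongs to neither and was kept because the symbol rule takes it in. Of the 76 genes, 44 were classed by their symbols as counterparts of bacterial ribosomal proteins and 32 as proteins without one. The symbol rule uses no array value, but the family was taken up with earlier results of these data known, and Mrps18b was singled out because an earlier analysis of the same data had called it for TSC22D4 shRNA against control.

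The mitochondrial ribosome, or mitoribosome, makes the few proteins that mitochondrial DNA encodes, nearly all of them core subunits of the respiratory chain and ATP synthase. Its RNAs come from mitochondrial DNA, whereas all of its proteins are encoded in the nucleus, made in the cytosol and imported. Skeletal muscle depends on this machinery to keep its oxidative capacity, and transcription of its genes is known to be driven by factors such as NRF1, GABP and YY1 with the coactivator PGC-1α.

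All animals were mice of the strain BKS.Cg-Dock7m +/+ Leprdb/J, which carries the leptin receptor mutation db and is used as a model of obesity and type 2 diabetes, and were 12 weeks old. Each of the 4 groups received the same total dose of adenovirus: control shRNA alone (control), LCN13 shRNA with control shRNA (LCN13), TSC22D4 shRNA with control shRNA (TSC22D4), or TSC22D4 shRNA with LCN13 shRNA (TSC22D4+LCN13). Of 4 parts of virus, 4 were control virus in control, 2 in LCN13 and in TSC22D4, and 0 in TSC22D4+LCN13 muscle. Each target hairpin thus came with less control virus, and these cannot be told apart. TSC22D4 is a transcriptional regulator and LCN13 a secreted lipocalin. Gastrocnemius was taken 1 week after injection, and 3 of the 7 animals of a group, described by the submitters as representative, were put on 1 array each. How far the virus reaches muscle, and by what measure the 3 animals were picked, was not stated.

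The arrays report log2 expression levels, so a difference of 1 is a doubling. Levels over all genes ran from 4.78 to 14.09 and arrays correlated with each other at 0.990 to 0.998. Tsc22d4 itself was not lower in any shRNA group: its level in TSC22D4 muscle exceeded control by 0.24 (adjusted p = 0.619, limma), and Obp2a, the symbol under which the array lists LCN13, lay between 4.90 and 4.97 on all arrays, near the floor. Muscle identity was clear, with Acta1, skeletal muscle actin, between 13.97 and 14.09, and the mean deviation of 12 muscle markers stayed between -0.091 and 0.046 on every array. Markers of other cells varied more. The mean deviation of 6 tendon genes ran from -1.06 to 0.11 in control, 0.14 to 0.44 in LCN13, -0.37 to 0.31 in TSC22D4 and 0.049 to 0.48 in TSC22D4+LCN13 muscle. For 6 fibroblast genes it was -0.71 to -0.23 in control and no lower than -0.18 on any of the 9 shRNA arrays, with none of the 6 called in any comparison. That of 3 red cell genes ran from -0.69 to -0.098 in control and 0.34 to 1.42 in TSC22D4+LCN13 muscle, and that of 5 macrophage genes from -0.30 to -0.13 and 0.13 to 0.75 in the same groups. Of these, Hbb-b1 and Alas2 of the red cell list and Adgre1 and Mrc1 of the macrophage list were called higher in TSC22D4+LCN13 than in control muscle. In such whole-tissue samples, fewer cells of a type and less RNA per cell cannot be told apart.

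Promoter sequences are shown first for 3 genes on which later results turn and which hold a motif of a factor known from this gene family: Mrps18b, the gene with the smallest p in a test over all 4 groups, Mrpl33 and Mrps26. They come from RefSeq on build GRCm38.p6, read 5′ to 3′ on the gene's own strand up to the base before the annotated start. Capitals mark the core of the NRF1 motif, GCATGCGC, or the GABP motif, ACTTCCGG, on either strand.
Mrps18b, chr17:35916441-35916690, minus strand: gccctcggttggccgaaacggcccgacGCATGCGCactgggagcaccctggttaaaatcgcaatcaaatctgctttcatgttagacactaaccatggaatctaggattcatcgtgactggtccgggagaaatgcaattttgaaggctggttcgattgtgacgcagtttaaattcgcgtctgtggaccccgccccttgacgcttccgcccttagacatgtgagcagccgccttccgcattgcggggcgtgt
Mrpl33, chr5:31613851-31613950, plus strand: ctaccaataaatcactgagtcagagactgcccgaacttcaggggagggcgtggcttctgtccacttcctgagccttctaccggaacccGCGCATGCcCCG
Mrps26, chr2:130563657-130563756, plus strand: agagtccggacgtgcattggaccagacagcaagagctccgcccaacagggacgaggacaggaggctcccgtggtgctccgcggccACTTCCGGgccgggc
The NRF1 core of Mrps18b begins at base -223 on the strand shown, and a second copy begins at base 29 after the start, outside the stretch printed. In Mrpl33 the NRF1 core lies on the opposite strand at base -12, and the last 3 capitals open a GABP motif, also on the opposite strand, that runs over the start. In Mrps26 the GABP motif begins at base -15.

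A promoter window of 300 bases, reaching from 250 before to 50 after the start, was given for 67 of the 76 genes. On either strand the NRF1 core was present in 8 of them (11.9%), against 4.03% of 17452 measured genes with a window. The GABP motif was present in 10 (14.9%, against 5.67%) and the YY1 motif AAGATGGCG in 8 (11.9%, against 2.17%). At least 1 of the 3 was found in 24 windows (35.8%, against 11.1%). Each of these shares was above that of the measured genes as a whole, and a match describes letters, not occupancy. Among the genes called in any test below, Mrps18b, Mrpl33 and Mrps26 had a match, Mrpl11, Mrpl21, Mrps21 and Mrps25 had none in this window, and Mrpl54 had no window. Mrps18a, a paralog of Mrps18b, held the YY1 motif.

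The genes were well expressed in this muscle. The mean level was above the median of all named genes, 5.48, for 73 of the 76, the exceptions being Mrpl23, Mrps14 and Mrps36, and mean levels ran from 5.08 to 11.5. Their median within-group SD was 0.117, against 0.0643 over all genes. Among genes above that median level the members were closer to the rest. The median standard error of a pairwise difference was 0.0893 for the 73 members and 0.0818 for all genes there.

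As a set, the genes had medians close to 0 in every comparison with control. In TSC22D4 muscle the median difference from control was 0.045 against -0.0019 over all genes, with 49 of 76 genes above 0 (64.5%, against 48.3% of all genes), and it turned to -0.019 when each array was centred on these genes' own median deviation, a centring that takes away any shift they share. In LCN13 muscle the median was -0.0043 with 37 of 76 above 0, and in TSC22D4+LCN13 muscle it was 0.024 with 42 of 76 above 0. The direct difference of TSC22D4 from LCN13 muscle had the largest median of the pairwise comparisons, 0.092, and it was 0.020 with that centring. The spread among the genes was far wider than these medians. Single differences ran from -0.37 to 0.39 for TSC22D4, from -0.35 to 0.28 for LCN13 and from -0.39 to 0.59 for TSC22D4+LCN13 against control.

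Array by array, the mean deviation of the 76 genes from their 12-array means was -0.012, -0.027 and -0.0097 in control animals 18, 19 and 20. It was -0.044, -0.057 and -0.0032 in LCN13 animals 21, 22 and 23. In TSC22D4 animals 25, 26 and 27 it was 0.056, 0.052 and 0.00055, so that all 3 lay above all control and LCN13 arrays, the third by little. In TSC22D4+LCN13 animals 29, 30 and 32 it was 0.081, -0.072 and 0.035. Animal 30 stood apart: 17 of its 76 genes were above their own mean, against 54 in animal 29 and 48 in animal 32. Animal 30 also had the highest marker deviations of its group for adipocytes (0.84, against -0.21 and -0.063 in animals 29 and 32), macrophages (0.75, against 0.13 and 0.16), hepatocytes (0.66, against -0.30 and -0.63), fibroblasts (0.61, against -0.12 and 0.31) and tendon (0.48, against 0.049 and 0.46). It was also highest for nerve and Schwann cells (0.25, against -0.013 and 0.14). For red cells (0.34, against 1.42 and 0.64) and skeletal muscle (-0.044, against 0.0028 and -0.019) it was the lowest of its group. For endothelial markers it lay between the others (0.10, against -0.13 and 0.21). The part of these markers in the result was not tested. Without animal 30 the median difference of TSC22D4+LCN13 from control was 0.069. Group means were -0.016 ± 0.0092 in control, -0.035 ± 0.028 in LCN13, 0.036 ± 0.031 in TSC22D4 and 0.015 ± 0.079 in TSC22D4+LCN13 muscle (SD, n = 3), and the spread of the last group covered all the other means.

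**Figure D1:**
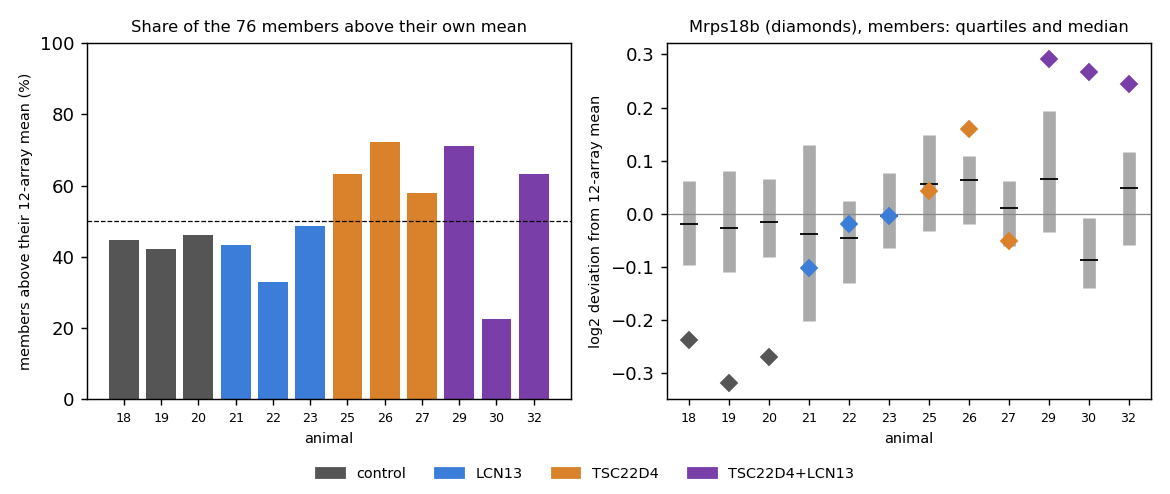
Left, the share of the 76 genes above their own 12-array mean (percent) for each animal, with a dashed line at an even split, coloured by group; animal 30 had 17 genes above and animal 26 had 55. Right, the log2 deviation of Mrps18b (diamonds) on each array over the quartile range (grey) and median (dash) of the 76 genes; it lay below the grey range on all 3 control arrays and above it on all 3 TSC22D4+LCN13 arrays.

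Large and small subunit genes were compared by their medians. For TSC22D4 against control the median was 0.083 over 50 large subunit genes, of which 33 were above 0, and 0.013 over 25 small subunit genes, of which 15 were above 0. For LCN13 they were 0.0041 and -0.070, and for TSC22D4+LCN13 0.024 and -0.0023. Genes with a bacterial counterpart had medians of 0.033, 0.0024 and 0.0023 in the same 3 comparisons, and those without one 0.068, -0.011 and 0.039. None of these differences between subsets was tested. For scale, 82 genes taken by symbol prefixes of the respiratory chain had medians of 0.035, 0.019 and 0.022. The mitoribosome makes the mitochondrially encoded partners of respiratory chain subunits. The prefix rule would also take in assembly factors named Ndufaf, which are not subunits. For 60 cytosolic ribosomal protein genes, likewise taken by symbol, the medians were -0.020, -0.010 and -0.035.

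**Figure D2:**
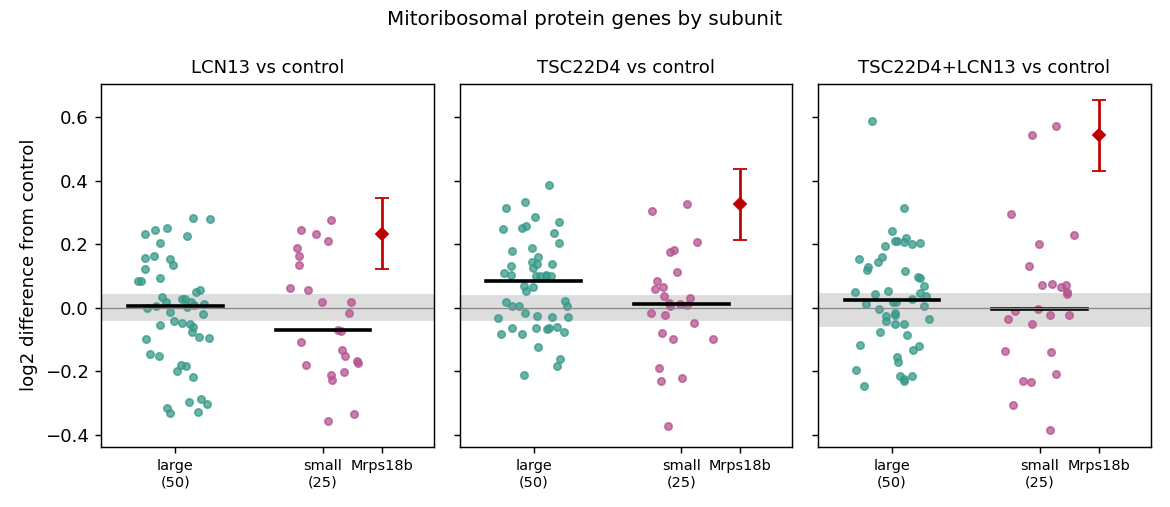
Log2 differences from control of each large subunit gene (teal) and small subunit gene (pink) in the 3 shRNA groups, with black bars at the medians, a grey band for the quartile range of all genes, and Mrps18b again as a red diamond with its 95% confidence interval. Genes lay on both sides of 0 in every panel, and the interval of Mrps18b was above 0 in all 3 panels.

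Of single genes, 1 of 76 passed the test for TSC22D4 against control (1.32%), beside 0.336% of all genes: Mrps18b, higher. A gene passes here at a Benjamini-Hochberg adjusted p below 0.05 over all genes in limma's moderated test. At an unadjusted p below 0.05 there were 20 (26.3%, against 9.26% of all genes), 16 higher (21.1%, against 4.52%) and 4 lower (5.26%, against 4.74%). Among genes above the median level, 14.4% met the same limit, against 26.0% of the 73 members there. The 3 values of TSC22D4 muscle lay wholly above control for 16 genes (21.1%, against 7.8%) and wholly below for 7 (9.21%, against 9.15%).

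No gene of the 76 passed for LCN13 against control, beside 0.85% of all genes, and 22 had an unadjusted p below 0.05 (28.9%, against 12.4%), 11 higher and 11 lower (14.5% each way, against 5.89% and 6.49%). Here too the share was closer to that of well expressed genes, 30.1% of the members against 21.6%. LCN13 arrays lay wholly above control for 15 genes (19.7%, against 9.74%) and wholly below for 14 (18.4%, against 9.02%).

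For TSC22D4+LCN13 against control 4 passed (5.26%), close to the 4.34% of all genes: Mrps18b and Mrps21 were higher (2.63%, against 1.72%), Mrpl21 and Mrps26 lower (2.63%, against 2.62%). At an unadjusted p below 0.05 there were 23 (30.3%, against 20.4%), and among well expressed genes the shares were 30.1% and 30.5%.

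Between the shRNA groups, 5 genes passed for TSC22D4+LCN13 against LCN13 (6.58%, beside 4.21% of all genes), with Mrps18b, Mrpl54 and Mrps25 higher (3.95%, against 1.32%) and Mrpl21 and Mrpl33 lower (2.63%, against 2.9%). At an unadjusted p below 0.05 there were 24 (31.6%, against 20.9%). Among well expressed genes the shares that passed were 6.85% and 7.19%. None passed for TSC22D4+LCN13 against TSC22D4, where limma called 0% of all genes and 8 members had an unadjusted p below 0.05 (10.5%, the same share as over all genes). None passed for TSC22D4 against LCN13 (beside 0.125% of all genes), although 27 members had an unadjusted p below 0.05 (35.5%, against 14%), or 35.6% against 21.9% among well expressed genes. In that comparison TSC22D4 arrays lay wholly above LCN13 arrays for 24 genes (31.6%, against 9.98%) and wholly below for 8 (10.5%, against 11.3%). The interaction asks whether the effect of TSC22D4 shRNA differed with and without LCN13 shRNA. It called none of the 76 (beside 0.125%), with 13 at an unadjusted p below 0.05 (17.1%, against 9.57%). Among well expressed genes the latter shares were 17.8% and 14.1%. The test for any difference among the 4 groups called 5 (6.58%, beside 3.33%): Mrps18b, Mrpl21, Mrpl11, Mrpl54 and Mrps21. Of all well expressed genes it called 6.2%, close to the share of the members. At an unadjusted p below 0.05 it took in 32 (42.1%, against 20.8%).

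Mrps18b encodes a small subunit protein, one of the 3 mammalian relatives of bacterial ribosomal protein S18. Its log2 level was 10.43, 10.35 and 10.40 in control, 10.56, 10.65 and 10.66 in LCN13, 10.71, 10.83 and 10.62 in TSC22D4, and 10.96, 10.93 and 10.91 in TSC22D4+LCN13 muscle. The 3 control arrays were the lowest of the 12 and the 3 TSC22D4+LCN13 arrays the highest, while LCN13 and TSC22D4 arrays overlapped. Group means went from 10.39 ± 0.041 in control through 10.62 ± 0.052 in LCN13 and 10.72 ± 0.106 in TSC22D4 to 10.93 ± 0.023 in TSC22D4+LCN13 muscle (SD, n = 3).

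For TSC22D4 against control the difference of Mrps18b was 0.33 (SE 0.0497, 95% confidence interval 0.21 to 0.44, adjusted p = 0.0285), a 1.25-fold higher level. This is the comparison in which the gene had first been noticed, so it is no independent evidence. The call did not hold without any 1 control animal or without animal 22, 25, 26 or 29, which makes 7 of 12 leave-one-out fits, with adjusted p up to 0.113 and differences of 0.27 to 0.38. For LCN13 against control the difference was 0.23 (interval 0.12 to 0.34, adjusted p = 0.0758), a 1.18-fold level that did not pass although the groups did not overlap, and it passed without TSC22D4 animal 26, at 0.0403. For TSC22D4+LCN13 against control it was 0.54 (interval 0.43 to 0.65, adjusted p = 0.000904), a 1.46-fold level, which passed in all 12 fits with 1 array left out. The fibroblast, red cell and macrophage markers given above were likewise higher on all 3 of these arrays than on the control arrays; with the tendon deviation as a covariate the difference was 0.61 (0.0192), and the part of the other markers was not tested.

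TSC22D4+LCN13 muscle exceeded LCN13 muscle by 0.31 (interval 0.20 to 0.42, adjusted p = 0.0134). It exceeded TSC22D4 muscle by 0.22 (interval 0.11 to 0.33, adjusted p = 0.234), and the latter did not pass. TSC22D4 and LCN13 muscle differed by 0.092 (interval -0.019 to 0.20, adjusted p = 0.458). The interaction was -0.016 (SE 0.0703, interval -0.17 to 0.14, adjusted p = 0.969). The log2 difference with both hairpins was thus close to the sum of the separate ones. The interval leaves room for a departure of up to 0.17 lower or 0.14 higher. Control virus fell in the same steps, from 4 parts in control to 2 with either hairpin and 0 with both. Hairpins and control virus cannot be told apart in this sum.

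The place of Mrps18b among the 76 genes is given as a description only, since it was chosen for its difference between TSC22D4 and control and the other comparisons with control use the same 3 control arrays. Its standard error was 0.0497 against a median of 0.0882 over the 76. By p-value it was the first for TSC22D4 and for TSC22D4+LCN13 against control and the second for LCN13. Counted from the most positive difference down, it was the third for TSC22D4 and TSC22D4+LCN13 and the seventh for LCN13. Some negative differences of other members were larger in size for TSC22D4 and LCN13, such as -0.37 for Mrps16 and -0.35 for Mrps25. The TSC22D4+LCN13 arrays do not enter the difference between TSC22D4 and control, but they do enter its standard error. The call for that difference was lost without animal 29. On these arrays the deviation of Mrps18b from its own 12-array mean ranked 10, 1 and 6 among the 76 in animals 29, 30 and 32. That mean includes the control arrays, so these ranks are not independent of the choice either. The comparison of TSC22D4+LCN13 with LCN13 uses neither control nor TSC22D4 arrays for its means, but its standard error draws on all 12 arrays. There Mrps18b had the second smallest p of the 76, and its difference ranked 8 from the most positive down.

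Mrps18a, the paralog whose protein lies in the large subunit, passed in none of these comparisons. Its level was 9.35, 9.43 and 9.48 in control, 9.11, 8.95 and 9.35 in LCN13, 9.34, 9.43 and 9.32 in TSC22D4, and 9.50, 9.28 and 9.34 in TSC22D4+LCN13 muscle. Values of all groups except LCN13 overlapped control, and its differences were -0.059 for TSC22D4 (adjusted p = 0.926), -0.29 for LCN13 (0.213) and -0.050 for both (0.823). Mrps18c, the other relative, was not analysed here.

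Of the 3 RefSeq genes on each side of Mrps18b, 4 were measured. Ppp1r10, its neighbour on the other strand, lies 71 bases away on the side of the Mrps18b start. The 250 bases printed above for Mrps18b reach past that gap. The promoter windows given for Ppp1r10 shared 0 bases with that of Mrps18b. Ppp1r10 was 7.36, 7.52 and 7.46 in control and 7.68, 8.05 and 7.71 in TSC22D4+LCN13 muscle. These values did not overlap, yet the difference of 0.37 did not pass (adjusted p = 0.124). Atat1, a tubulin acetyltransferase gene on the other side, was 0.27 above control in LCN13 muscle (0.0647) and lower by 0.35 in TSC22D4+LCN13 than in LCN13 muscle (0.0114), the reverse of Mrps18b in that last comparison. 2310061I04Rik differed from control by -0.076 to 0.041 and Rbx1-ps by 0.010 to 0.033. For these neighbours RefSeq was used only for the order and spacing of genes and for promoter windows.

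Other small subunit genes called in a test were Mrps21, Mrps26 and Mrps25. Mrps21, a counterpart of bacterial S21, was 11.02, 11.25 and 11.13 in control, 11.34, 11.52 and 11.27 in LCN13, 11.27, 11.29 and 11.18 in TSC22D4, and 11.76, 11.50 and 11.86 in TSC22D4+LCN13 muscle. Both LCN13 and TSC22D4+LCN13 arrays lay above all control arrays. The difference of TSC22D4+LCN13 was 0.57 (SE 0.0985, adjusted p = 0.0154), the second largest of the 76. It did not hold without control animal 18 or 20 (adjusted p up to 0.0551) with the tendon covariate (0.194) or with only the arrays compared (0.08).

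Mrps26, a protein of the mitoribosome without bacterial counterpart, went the other way. Its level was 6.68, 6.75 and 6.96 in control, 6.34, 6.54 and 6.50 in LCN13, 6.58, 6.56 and 6.59 in TSC22D4, and 6.53, 6.49 and 6.46 in TSC22D4+LCN13 muscle. All 9 shRNA arrays lay below all control arrays, a split that the fibroblast markers share in the other direction; their part was not tested. The difference was -0.31 for TSC22D4+LCN13 (SE 0.0707, adjusted p = 0.0432), -0.34 for LCN13 (0.0734) and -0.22 for TSC22D4 (0.337), and the 1 call was lost in 9 of the 12 fits with an array left out: without any 1 of LCN13 animal 23, control animals 19 and 20, the 3 TSC22D4 or the 3 TSC22D4+LCN13 animals (adjusted p up to 0.115). It also failed in 4 of the 8 other alternatives, and with the tendon covariate it was -0.21 (0.43).

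Mrps25, likewise without bacterial counterpart, was 7.28, 7.47 and 7.43 in control, 6.95, 7.06 and 7.11 in LCN13, 7.68, 7.48 and 7.27 in TSC22D4, and 7.72, 7.38 and 7.77 in TSC22D4+LCN13 muscle. LCN13 arrays were the 3 lowest. TSC22D4+LCN13 exceeded LCN13 muscle by 0.58 (SE 0.122, adjusted p = 0.0322), while the difference of LCN13 from control, -0.35, was the most negative of that comparison and did not pass (0.245). The call was lost in 6 fits with 1 array left out, those without animal 21, 22, 23, 26, 29 or 32, with adjusted p up to 0.0972, and with only the arrays compared (0.104).

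In the large subunit, Mrpl21, a counterpart of bacterial L21, was called in 2 comparisons. Its level was 7.97, 7.92 and 7.93 in control, 7.96, 7.96 and 7.99 in LCN13, 7.86, 7.91 and 7.86 in TSC22D4, and 7.64, 7.75 and 7.79 in TSC22D4+LCN13 muscle. TSC22D4+LCN13 arrays were the 3 lowest. The difference was -0.21 from control (SE 0.0351, adjusted p = 0.0119) and -0.24 from LCN13 (0.00953), and both passed in all 12 fits with 1 array left out. The first did not hold in 3 of the 8 other alternatives, namely trend and robust options (0.126), the tendon covariate (0.138) and only the arrays compared (0.0961). The second did not hold in 2 of 8, trend and robust options (0.0845) and only the arrays compared (0.097).

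Mrpl33, a counterpart of bacterial L33 whose promoter is shown above, was 9.08, 9.07 and 9.12 in control, 9.46, 9.23 and 9.42 in LCN13, 8.90, 9.13 and 8.87 in TSC22D4, and 8.76, 9.05 and 8.79 in TSC22D4+LCN13 muscle. It was highest on the 3 LCN13 arrays. TSC22D4+LCN13 lay below LCN13 muscle by a log2 difference of -0.51 (SE 0.0951, adjusted p = 0.0235), a call lost without animal 21, 23, 29 or 32 (up to 0.0746) or with only the arrays compared (0.11). LCN13 was 0.28 above control (0.238).

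Mrpl54, without bacterial counterpart, was 9.34, 9.41 and 9.42 in control, 9.31, 9.29 and 9.30 in LCN13, 9.60, 9.60 and 9.45 in TSC22D4, and 9.49, 9.51 and 9.51 in TSC22D4+LCN13 muscle. Both groups with TSC22D4 shRNA lay wholly above the other 6 arrays. TSC22D4+LCN13 exceeded LCN13 muscle by 0.21 (adjusted p = 0.0247), and TSC22D4 exceeded it by 0.25 (0.0554), which did not pass. The call was lost without animal 21, 22, 23, 29 or 32 (up to 0.0702) and in 5 of the 8 other alternatives (up to 0.117).

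Mrpl11, a protein of the base of the ribosomal stalk that contacts translation factors, was 7.09, 6.96 and 7.02 in control, 6.60, 6.67 and 6.82 in LCN13, 7.25, 7.03 and 7.10 in TSC22D4, and 6.75, 6.73 and 6.85 in TSC22D4+LCN13 muscle. Here the 6 arrays with LCN13 shRNA were all below the 6 without it. It was called by the 4-group test (adjusted p = 0.0244). None of its pairwise differences passed. Against control they were -0.33 for LCN13 (0.0758) and -0.25 for TSC22D4+LCN13 (0.0801). TSC22D4 exceeded LCN13 muscle by 0.43 (0.0556), and TSC22D4+LCN13 differed from TSC22D4 muscle by -0.35 (0.212). No fit with an array left out is given here for this gene alone.

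**Figure D3:**
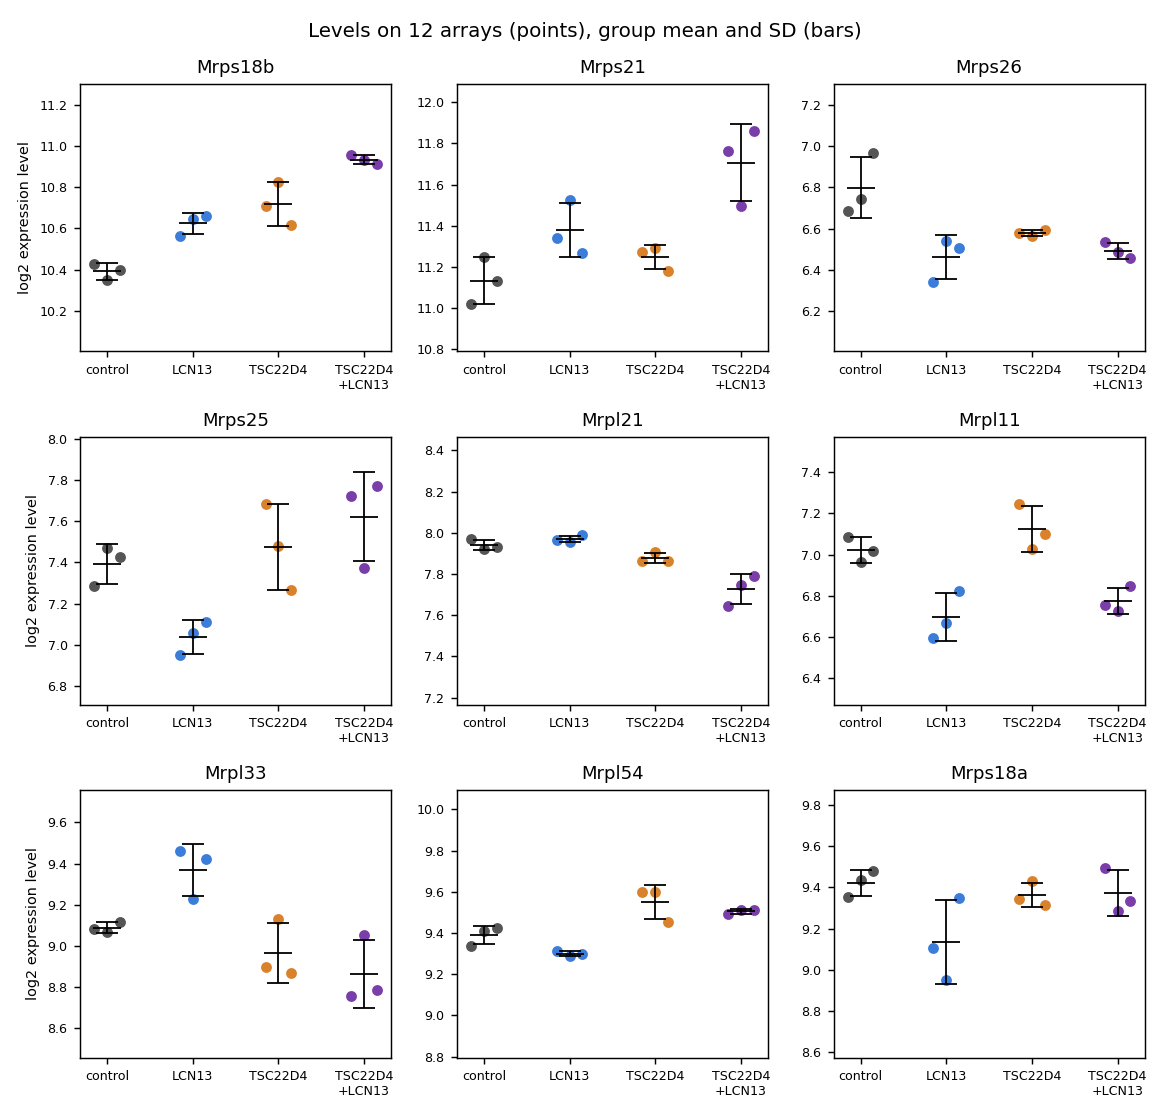
Log2 levels of the 8 genes called in at least 1 test, and of Mrps18a, on the 12 arrays (points), with group means and SD (bars, n = 3); every panel spans the same log2 range. Mrps18b rose from 10.39 in control to 10.93 in TSC22D4+LCN13 muscle, Mrpl11 was low in both groups with LCN13 shRNA, and Mrpl54 was high in both groups with TSC22D4 shRNA.

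The remaining genes at either end of a comparison with control did not pass. For TSC22D4, Mrpl19 had the largest difference, 0.39 (adjusted p = 0.266), with 7.91, 7.89 and 7.91 in control and 8.33, 8.42 and 8.12 in TSC22D4 muscle, and Mrpl45, known to tie the ribosome to the inner membrane, had 0.33 (0.332). At the low end were Mrps16 at -0.37 (0.208), Mrps9 at -0.23 (0.26) and Mrps26. Mrps16 was 6.89, 6.75 and 7.07 in control and 6.52, 6.39 and 6.68 in TSC22D4 muscle, again without overlap.

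For LCN13 the most positive differences were those of Mrpl17 at 0.28 (0.209), Mrpl33 and Mrps2 at 0.28 (0.248). At the low end were Mrps25, Mrps26 and Mrpl20 at -0.33 (0.31). For TSC22D4+LCN13, Mrpl32 had 0.59 (SE 0.191, 0.117), the largest of any member, but its 3 values were 7.04, 6.20 and 6.76 against 6.33, 5.94 and 5.97 in control, and animal 30 fell inside the control range. Mrps16 was lowest at -0.39 (0.058), with values of 6.68, 6.45 and 6.43 that lay below control.

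**Figure D4:**
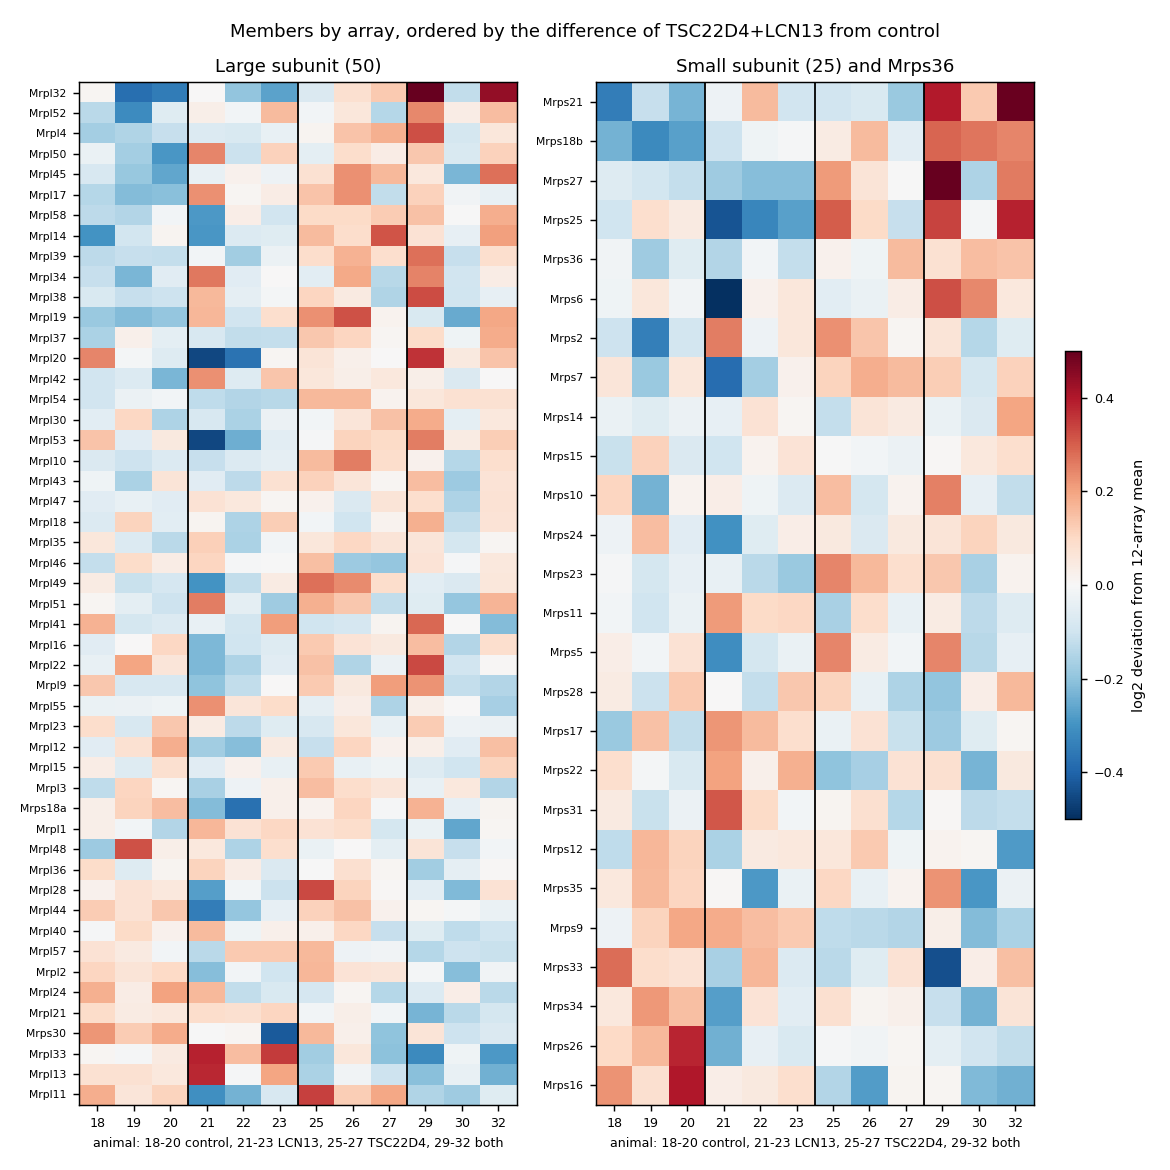
All 76 genes on the 12 arrays, as log2 deviation from each gene's 12-array mean (red above, blue below, colours saturating at 0.5), in large subunit (left) and small subunit with Mrps36 (right), ordered by the difference of TSC22D4+LCN13 from control. The column of animal 30 was mostly blue, with 17 of 76 genes above their mean, unlike animals 29 and 32.

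Other genes of mitochondrial translation were followed through 6 lists with 87 measured genes. They held mitoribosomal subunits with other names (4), assembly and rRNA modification (30), translation factors (12), aminoacyl-tRNA synthesis (21), mitochondrial DNA maintenance and transcription (10), and nuclear regulators of mitochondrial genes (10). For TSC22D4 against control none of the 87 passed, beside 0.336% of all genes (median 0.038). Above 0 lay 3 of the 4 other subunits, 20 of the 30 assembly genes, 10 of the 12 translation factors, 16 of the 21 aminoacyl-tRNA genes and 8 of the 10 DNA maintenance and transcription genes, but 3 of the 10 nuclear regulators, beside 48.3% of all genes. The medians of these lists were 0.067, 0.031, 0.080, 0.079, 0.024 and -0.061 in that order.

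For LCN13 against control 1 passed (1.15%, beside 0.85% of all genes), lower, with a median of -0.034 over the 87: Gatb, a subunit of the amidotransferase that makes glutaminyl-tRNA in mitochondria. It was 6.20, 6.12 and 6.24 in control and 5.88, 5.95 and 5.96 in LCN13 muscle, a difference of -0.26 (adjusted p = 0.039). It was 6.26, 6.14 and 6.32 with both hairpins, above all LCN13 arrays, with a difference from LCN13 of 0.31 (0.00985). The assembly factors Rbfa and Mtg2 were also higher in TSC22D4+LCN13 than in LCN13 muscle, by 0.37 (0.0305) and 0.30 (0.0474), and with Gatb made 3 calls of the 87 (3.45%, beside 4.21% of all genes). Against control, Rbfa had -0.0012 in TSC22D4+LCN13 (0.995) and -0.37 in LCN13 muscle (0.0647), and Mtg2 0.14 (0.313) and -0.16 (0.392). None of these 4 differences from control passed. For Gatb, Rbfa and Mtg2 no fit with an array left out is given here.

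For TSC22D4+LCN13 against control 1 of the 87 passed (1.15%, beside 4.34% of all genes), also lower: Nrf1, the factor whose motif is shown above. Its level was 6.51, 6.59 and 6.53 in control and 6.25, 6.31 and 6.45 in TSC22D4+LCN13 muscle. The difference of -0.21 passed narrowly (adjusted p = 0.0498), and no fit with an array left out is given here for Nrf1. Of the 10 nuclear regulators 2 lay above 0, with a median of -0.17. Gabpa, the DNA-binding subunit of GABP, differed by -0.21 (0.151) and Esrra, an orphan nuclear receptor of oxidative metabolism, by -0.14 (0.54).

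Ppargc1a, which encodes PGC-1α, was 10.26, 10.38 and 10.42 in control, 10.87, 10.93 and 11.04 in LCN13, 10.61, 10.60 and 10.86 in TSC22D4, and 10.61, 11.15 and 10.62 in TSC22D4+LCN13 muscle. All 9 shRNA arrays lay above control, with differences of 0.59 for LCN13 (0.0932), 0.34 for TSC22D4 (0.481) and 0.44 for both (0.105) that did not pass. The fibroblast markers split the arrays in the same way, and their part was not tested. Ppargc1a was highest on animal 30. Tfam, which packs and transcribes mitochondrial DNA, had 0.19 for TSC22D4 (0.729), -0.26 for LCN13 (0.429) and 0.17 for both (0.501).

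Polrmt, the mitochondrial RNA polymerase, had -0.30 with both hairpins (0.136), and Tufm, the mitochondrial elongation factor Tu, -0.15 (0.0882). Over the 3 comparisons Tfb2m, a mitochondrial transcription factor, differed from control by -0.046 to 0.013 and Dap3, a small subunit protein named otherwise, by -0.11 to 0.095. None of these 4 genes passed.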

How the data were processed

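Total RNA of gastrocnemius had been hybridised to 1-colour Affymetrix arrays, 12 in all, per the labels' protocols. The deposited log2 values were made by the authors with RMA, per the submitters' processing notes. Which RMA version, genome build and probe set design were used was not given in the sources used here. RMA equalises the arrays' distributions, so a change of most transcripts in 1 direction would not be visible. Of 25206 probe sets 23185 had 1 gene symbol in the platform annotation, and the other 2021 (8.02%) entered only an alternative.

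Groups came from the labels. All genes were fitted with limma 3.58.1 in R 4.3.3 over the 12 arrays with 4 group means (8 residual and 1.69 prior degrees of freedom), two-sided, with Benjamini-Hochberg adjustment within each of 7 comparisons and an F test. The code was tested on simulated data. The 3 comparisons with control share control arrays, and those among shRNA groups share theirs. No batch, slide or date was given for the arrays, so that a batch following the groups cannot be told apart from them.

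The members and gene lists were chosen with earlier results of these data known. Genes named with values were Mrps18b and its relatives, every member called, the F test's 3 smallest p, the 3 largest and 3 smallest differences from control, list genes called against control, 9 set regulators and translation genes, and the neighbours of Mrps18b; Rbfa and Mtg2 were added after their values were seen. Alternatives changed the probe sets, a filter on level, eBayes options, centring, array weights, the samples fitted, a tendon covariate, and the arrays left in. Motifs were searched in RefSeq windows of 300 bases.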

Additional observations from a re-analysis of the deposited data

How the results depend on the processing

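The number of arrays, 3 a group, limits the precision. No paired analysis was possible because animal numbers differ between groups. No sign of a called value turned. The rise of Mrps18b in TSC22D4+LCN13 over control passed in all 20 alternatives (adjusted p 0.000582 to 0.0192).

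For TSC22D4 against control, 0 members passed when arrays were centred on the members' median deviation, with a tendon covariate or with only the arrays compared; Mrps18b was then 0.26 (adjusted p = 0.0899), 0.37 (0.0944) and 0.33 (0.13). With the members' centring, which removes their shared shift, the median was -0.019, and for TSC22D4 against LCN13 0.020. For LCN13 against control 1 member passed among genes above the median level and 2 with array weights, where Mrps18b was 0.24 (0.0486). For TSC22D4+LCN13 against control 1 passed with the tendon covariate and 1 with only the arrays compared, against LCN13 8 among genes above the median level and 0 with only the arrays compared, where Mrps18b was 0.31 (0.0767). For TSC22D4 against LCN13 1 passed among genes above the median level, 1 with the members' centring, 2 with array weights and 1 with only the arrays compared. The F test called 1 with the tendon covariate. The cause of these changes was not tested. Some of these fits also held fewer arrays or fewer genes.

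Leaving out 1 array gave 0 to 2 called members for TSC22D4 against control (2 without animal 27, 0 without the 7 animals named for Mrps18b) and 0 to 1 for LCN13 (1 without animal 22, 23 or 26). It gave 2 (without animal 20) to 8 (without animal 30) for TSC22D4+LCN13 against control, 2 (without animal 21 or 32) to 12 (without animal 30) against LCN13, with 3 without animal 29, and 0 to 3 for TSC22D4 against LCN13 (1 without animal 27, 3 without animal 30). The F test called 3 (without animal 20, 21, 25, 27 or 32) to 10 (without animal 30). Mrps18b ranged from 0.27 to 0.38 for TSC22D4 and 0.21 to 0.26 for LCN13 against control. The median ran from -0.015 to 0.069 for TSC22D4+LCN13 against control, -0.057 to 0.017 against TSC22D4, 0.015 to 0.097 against LCN13 and -0.035 to 0.030 for the interaction.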
